A study of Mus musculus with 17 samples.

Results

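A set of 10 genes of fatty acid synthesis, desaturation and chain elongation was followed in the remote myocardium of infarcted and sham operated mice: the fatty acid synthase Fasn, the stearoyl-CoA desaturases Scd1, Scd2 and Scd4, the fatty acid desaturases Fads1, Fads2 and Fads3, and the elongases Elovl1, Elovl5 and Elovl6. All 19 array probes annotated to these 10 genes were taken, out of 34885 probes with a single gene symbol. The set was chosen by the change of Scd4 between infarcted and sham hearts, so the members' values in that comparison are given as a description, with no p-value, and its calls are counted only beside their share over all genes. Infarcted mice received valsartan, which blocks type 1 angiotensin receptors, at 1 mg/kg/day in drinking water (MI+Val, n = 5). Untreated infarcted mice (MI, n = 6) drank water only, and sham mice (n = 6) had a thoracotomy without ligation of the coronary artery. All 17 animals were female mice of 8-10 weeks, of strain C57/BL6 by the labels and C57BL/6N by the methods, and infarcted mice entered the study with an ejection fraction of 35-45%. Total RNA came from the posterior and inferior wall of the left ventricle, away from the infarct, 4 weeks after surgery, with 1 mouse on each array. The arrays were spread unevenly over 3 BeadChips. Chips 1, 2 and 3 held 1, 2 and 2 MI+Val arrays, 4, 1 and 1 MI arrays, and 1, 3 and 2 sham arrays. Group and chip can therefore not be fully told apart.

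Fatty acid synthase builds palmitate from acetyl-CoA and malonyl-CoA, and elongases of the endoplasmic reticulum add carbon pairs to fatty acyl-CoA chains. Stearoyl-CoA desaturases put the first double bond into saturated chains, and their products enter phospholipids and triglycerides. Fads1 and Fads2 add double bonds nearer the carboxyl end on the way to arachidonic and docosahexaenoic acid. The mouse has a cluster of Scd genes on chromosome 19, and Scd4 is known as the member expressed mainly in the heart. The heart burns fatty acids rather than storing them and makes little by itself, while adipose tissue and liver have high levels of Fasn and Scd1.

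The promoters of 7 of the 10 genes, in 8 windows of 300 bases from 250 before to 50 after the start of the gene, were found in a RefSeq table of build GRCm38.p6. Those of 3 genes are shown, that of Scd4 because it is the gene that stood out, and those of Elovl5 and Fads3 because they are measured members with another set of motif letters. Capitals mark CCAAT, the NF-Y box, CACGTG, the E-box core, and GGGCGG, the GC box, on either strand.
Scd4 promoter, chr19:44333076-44333375, + strand: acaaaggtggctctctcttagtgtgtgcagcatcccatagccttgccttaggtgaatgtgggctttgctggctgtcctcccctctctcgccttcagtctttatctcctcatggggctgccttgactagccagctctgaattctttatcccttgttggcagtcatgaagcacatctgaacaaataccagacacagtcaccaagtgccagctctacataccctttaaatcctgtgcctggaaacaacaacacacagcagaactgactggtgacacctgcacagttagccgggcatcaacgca
Elovl5 promoter, chr9:77917115-77917414, + strand: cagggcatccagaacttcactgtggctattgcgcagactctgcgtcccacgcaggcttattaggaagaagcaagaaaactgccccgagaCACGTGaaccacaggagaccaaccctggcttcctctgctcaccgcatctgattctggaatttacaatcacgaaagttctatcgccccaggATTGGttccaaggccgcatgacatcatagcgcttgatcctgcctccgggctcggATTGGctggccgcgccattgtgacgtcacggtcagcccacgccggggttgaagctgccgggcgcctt
Fads3 promoter, chr19:10041298-10041597, + strand: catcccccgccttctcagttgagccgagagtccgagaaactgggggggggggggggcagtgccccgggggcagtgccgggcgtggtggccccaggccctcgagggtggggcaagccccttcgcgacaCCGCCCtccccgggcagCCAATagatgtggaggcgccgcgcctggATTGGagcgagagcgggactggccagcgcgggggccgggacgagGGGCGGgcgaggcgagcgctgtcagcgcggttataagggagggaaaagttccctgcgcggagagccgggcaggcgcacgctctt
CCAAT occurred in 37.4% of all 32851 promoter windows, CACGTG in 7.15%, GGGCGG in 35.7%, TATAAA in 13.6% and TCACNCCAC, a sterol element, in 1.24%. None of these 5 was in the Scd4 window or in that of Elovl6. Elovl5 held CCAAT 2 times and CACGTG 1 time, and Fads3 held CCAAT 2 times and GGGCGG 2 times. The Fasn window held CCAAT 3 times, on both strands and in part overlapping. A match is only a match of letters, and none says only that the letters are not in this window.

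The median bead signal was 96.4 to 117 in MI+Val, 90 to 120.3 in MI and 104.7 to 115.2 in sham arrays. It lies near background, as the member probes that did not pass the brightness filter below had a median of 104.6. Bright probes varied more before normalization: Elovl5 had 995.8 in MI mouse 1 and 2013.4 in MI mouse 4, which became 10.46 and 10.32 on the log2 scale. All 9 cardiomyocyte markers with a probe were measured. A group of 5 arrays stood apart: the atrial myosin light chain Myl7 was detected on 2 MI+Val arrays (mice 4 and 5), 1 MI array (mouse 5) and 2 sham arrays (mice 5 and 6), at 7.89 to 11.94 on the log2 scale, and was not detected on the other 12 arrays, at 4.26 to 4.55. Sarcolipin (Sln), another atrial gene, followed the same split, with 7.92 to 12.16 on the 5 arrays and 4.27 to 4.76 on the rest. Adult left ventricle normally has little of either, and these 5 arrays go against their label of left ventricle in that respect. The fat cell hormone Adipoq was detected on 1 array only, that of sham mouse 6 (6.25). Results are therefore also given without these 5 arrays, a choice made after seeing the data, which leaves 3 MI+Val, 5 MI and 4 sham mice. Of these 5, the MI array was on chip 2 and the MI+Val and sham arrays on chip 3. On chip 3 that leaves only MI mouse 6, so leaving out these arrays cannot be told apart from leaving out most of chip 3. The part of atrial tissue in any result was not tested.

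Of the 10 genes, 6 had a probe that passed the filter on brightness (33rd percentile of the bead signal over all arrays at or above a set minimum): Scd1, Scd4, Fads1, Fads3, Elovl1 and Elovl5, with 10 probes among them. The other 9 probes had bead signals of 79 to 130.8, and were above background (detection p under 0.01) in 2 of 153 cases. Fasn, Scd2, Fads2 and Elovl6 had no probe that passed. Scd2 was detected on 1 MI array and Elovl6 on 1 MI+Val array, and Fasn and Fads2 on none. Fads1 and Fads3 each had a bright probe beside dim ones, so that not being bright on 1 probe does not say that a transcript is absent.

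**Figure D1:**
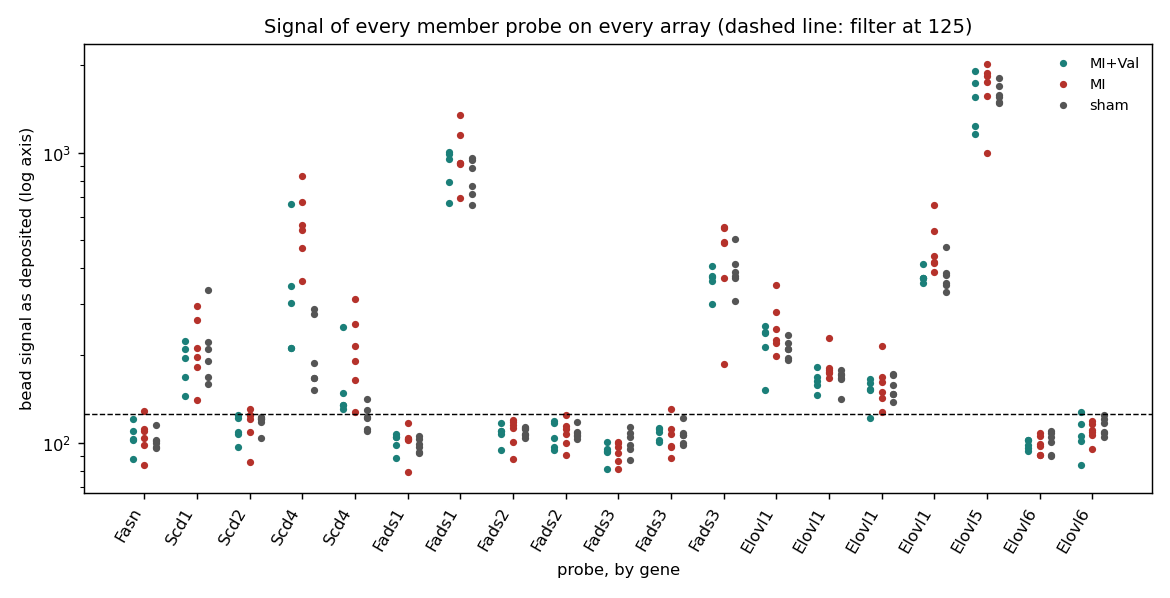
Bead signal as deposited (log axis) of all 19 probes, in gene order along the x axis, 1 point per array, for MI+Val, MI and sham mice, with the filter's minimum as a dashed line. The 9 probes that did not pass lie between 79 and 130.8 on every array.

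Scd4 was the member that differed most between MI and sham hearts. On its most variable probe, the one used for the gene, MI+Val mice 1 to 5 had 8.12, 6.77, 6.94, 8.03 and 9.41 on the log2 scale. MI mice lay between 8.55 and 9.21, with a median of 8.78, and sham mice between 5.79 and 7.67, with a median of 6.59. All 6 MI mice were above all 6 sham mice, while the MI+Val mice spanned both: mice 2 and 3 lay within the range of sham, mice 1 and 4 lay between sham and MI, and mouse 5 lay above every MI mouse. Scd4 averaged 7.85 ± 1.07 in MI+Val (SD, n = 5), 8.81 ± 0.24 in MI and 6.76 ± 0.73 in sham hearts (SD, n = 6 each). The 6 MI mice were the tightest group and the MI+Val mice the widest. MI+Val mouse 1 was on chip 1, mice 2 and 3 on chip 2, and mice 4 and 5 on chip 3. Myl7 was detected in mice 4 and 5 of that group. The spread within MI+Val can therefore not be told apart from chip or atrial tissue, and their part was not tested.

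**Figure D2:**
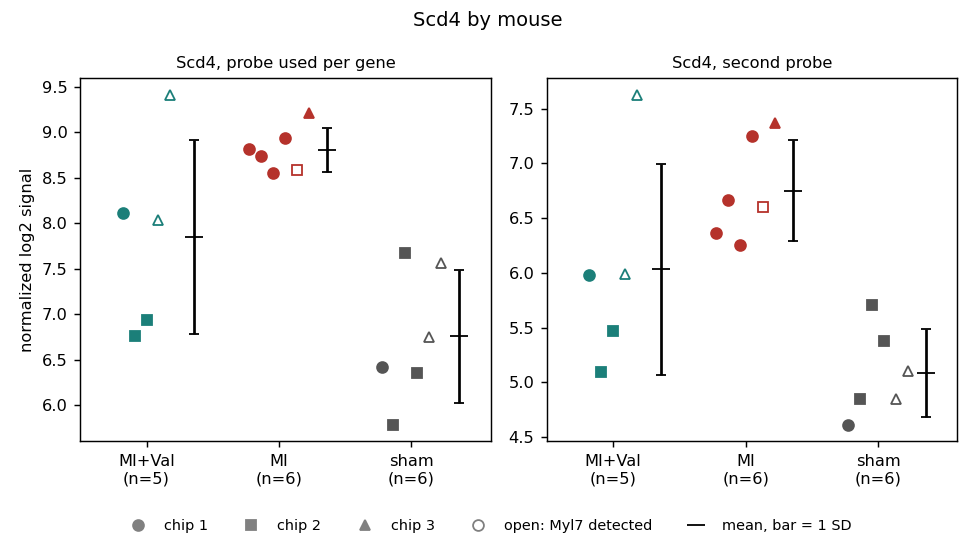
Normalized log2 signal of the 2 Scd4 probes in each mouse (points, shape by chip, open where Myl7 was detected), with the mean and 1 SD at the right of each group. On both probes MI mice lie above sham mice, and the 5 MI+Val mice run from 6.77 to 9.41 on the first probe and from 5.09 to 7.62 on the second.

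The second Scd4 probe also had MI+Val mice 2 and 3 lowest and mouse 5 highest of that group. MI+Val mice 1 to 5 had 5.98, 5.09, 5.47, 5.99 and 7.62, MI mice had 6.25 to 7.37 with a median of 6.63, and sham mice had 4.61 to 5.71 with a median of 4.98. The MI and sham mice did not overlap, in the comparison that picked out the gene. The probe was detected on 4 of 5 MI+Val arrays, all 6 MI arrays and 2 of 6 sham arrays, and its median bead signal in sham was 121.9, under that minimum, so it passed the filter through the infarcted groups. The 2 probes correlated with r = 0.93 over 17 arrays, and with 0.82 after the group means were removed, as a description.

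Between MI and sham, Scd4 differed by 2.05 on the log2 scale (SE 0.37, 95% interval 1.28 to 2.81), 4.14-fold, and by 1.66 (SE 0.32) on the second probe, where 4 of the 6 sham values were not above background, so that its size is uncertain. Scd4 ranked 4 of 8236 genes from the top. Neither this rank nor the interval allows for the choice of Scd4 by this same difference. On the authors' own normalized scale the differences were smaller, 1.13 and 0.46. Within chips 1, 2 and 3 the means differed by 2.34 (4 MI mice and 1 sham mouse), 1.98 (1 and 3) and 2.05 (1 and 2). Without the 5 arrays with atrial markers the difference was 2.29, and 197 genes were called over all genes. In bulk tissue, fewer cells of a type and less RNA per cell cannot be told apart. Of 8236 genes tested, 464 were called in MI against sham at an adjusted p under 0.05 in limma (5.63%), 273 higher (3.31%) and 191 lower (2.32%), and 1 of the 6 measured members, Scd4, was among them. Of the 11897 probes 590 were called (4.96%), and 2 of the 10 member probes, both of Scd4. Mice of the 2 groups did not overlap for 292 genes, 3.55%, and among the members for Scd4 only. Since Scd4 was picked out in this comparison, nothing is read from these counts.

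Between MI+Val and MI, the Scd4 difference was -0.95 (SE 0.38, 95% interval -1.76 to -0.15), with an adjusted p of 0.443 over all genes in limma, so it did not pass. This comparison shares the MI mice with the one that picked out Scd4. On the second probe the difference was -0.72, with an adjusted p of 0.571 over all probes. No gene of 8236, 0%, passed in this comparison in limma, although 760 had an unadjusted p under 0.05, and the methods' t-test after adjustment also called 0. Of the probes 1 passed (0.00841%), none of a member. Mice did not overlap for 1.12% of genes, and overlapped for all 6 measured members. Within the chips the difference was -0.64, -1.73 and -0.49, on few mice each. It was -0.56 on the deposited values, -1.34 without MI+Val mouse 5 (adjusted p between 0.103 and 0.724 over the mice left out in turn) and -1.58 without the 5 arrays with atrial markers (adjusted p 0.129).

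Against sham, the Scd4 difference of MI+Val hearts was 1.10 (SE 0.38, 95% interval 0.29 to 1.90; adjusted p 0.452), and 0.95 on the second probe (adjusted p 0.467 over probes), so it did not pass. Of 8236 genes 1, 0.0121%, passed in this comparison, which shares the sham mice with the first, and 0.0252% of probes, none of them of a member. Mice did not overlap for 0.777% of genes, and overlapped for all 6 measured members. The Scd4 difference was 0.58 on the deposited values, 0.67 with array weights, 0.73 with no background correction, 0.71 without MI+Val mouse 5 and 0.72 without the 5 arrays with atrial markers (adjusted p 0.889). Within the chips it was 1.70, 0.25 and 1.56, on few mice each.

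Scd1, the main desaturase of liver and fat, and the neighbour of Scd4 on the chromosome, had overlapping groups. MI+Val mice 1 to 5 had 6.27, 6.90, 6.92, 6.79 and 6.71, MI mice 6.56 to 7.36 with a median of 6.81, and sham mice 6.15 to 7.95 with a median of 6.91. The sham mice were the widest group. MI minus sham was -0.02 (SE 0.24), and MI+Val against MI gave -0.14 (95% interval -0.65 to 0.38; adjusted p 0.898). Scd1 was highest in the 3 mice with the most Myl7, sham mouse 6, MI mouse 5 and sham mouse 5. MI+Val mice 4 and 5, whose arrays also had Myl7, were at 6.79 and 6.71 for Scd1. Sham mouse 6 was also the only mouse with Adipoq detected (6.25). Without the 5 arrays with atrial markers Scd1 was higher in MI than in sham by 0.22 (SE 0.19). The part of atrial or fat tissue in the Scd1 level was not tested.

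**Figure D3:**
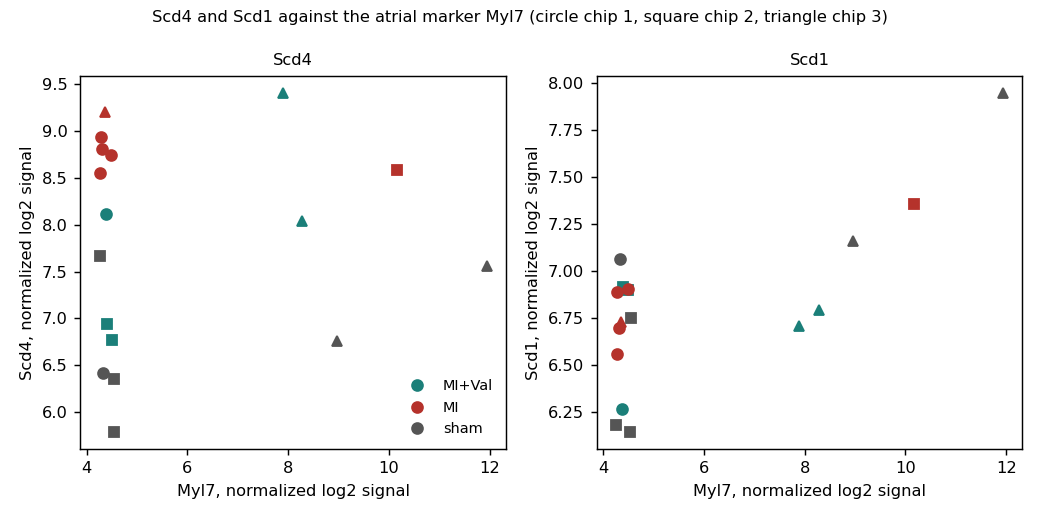
Scd4 (left) and Scd1 (right) against the atrial marker Myl7, both as normalized log2 signal, 1 point per mouse, coloured by group. The highest Scd1 value, 7.95, belongs to the sham mouse with the highest Myl7, 11.94. The highest Scd4 value, 9.41, belongs to MI+Val mouse 5, with Myl7 at 7.89, and Scd4 is also high in MI mice with Myl7 near 4.3. The part of atrial tissue was not tested.

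Fads1, the delta-5 desaturase, was at 9.52, 9.66, 9.81, 9.87 and 9.70 in MI+Val mice 1 to 5, at 9.61 to 9.90 in MI mice with a median of 9.72, and at 9.17 to 9.78 in sham mice with a median of 9.57. MI exceeded sham by 0.21 (SE 0.11, 95% interval -0.01 to 0.44) with overlapping mice. MI+Val against MI gave -0.03 (95% interval -0.27 to 0.21; adjusted p 0.958), and MI+Val against sham 0.19 (adjusted p 0.770).

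Fads3, a desaturase of the same gene cluster, was at 8.11, 8.04, 8.14, 8.13 and 8.55 in MI+Val mice, at 7.46 to 8.65 in MI mice with a median of 8.42, and at 7.79 to 8.60 in sham mice with a median of 8.28. The groups overlapped, and MI and sham differed by 0.03 (SE 0.18). MI+Val against MI gave -0.08 (95% interval -0.47 to 0.31; adjusted p 0.926).

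Elovl5, an elongase of polyunsaturated chains, had bead signals of 1160.8 to 1910.9 in MI+Val. Its levels were 10.37, 10.72, 10.70, 10.55 and 10.42 in MI+Val mice, 10.32 to 10.76 in MI mice with a median of 10.55, and 10.41 to 10.79 in sham mice with a median of 10.57. MI and sham differed by -0.04 (SE 0.10), and MI+Val and MI by 0.01 (95% interval -0.21 to 0.22; adjusted p 0.989).

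Elovl1, which elongates saturated and monounsaturated very long chains, had 4 probes that passed, which did not give the same answer. The probe used for the gene was the dimmest of the 4 by its mean in each group. It had 5.54, 5.72, 5.99, 6.22 and 6.65 in MI+Val mice. In MI mice it had 5.67 to 6.45 with a median of 6.07, and in sham mice 5.74 to 6.41 with a median of 6.07. It differed by 0.01 (SE 0.17) between MI and sham. The brightest probe had 8.48, 7.94, 8.12, 8.16 and 8.59 in MI+Val mice, 8.31 to 8.95 in MI mice and 7.97 to 8.49 in sham mice. It was higher in MI than in sham by 0.33 (SE 0.13, 95% interval 0.07 to 0.60), with overlapping mice, and the other probes by 0.32 (SE 0.16) and 0.23 (SE 0.16). Between MI+Val and MI, Elovl1 differed by -0.06 on the probe used (adjusted p 0.945) and -0.26 on the brightest (adjusted p 0.596 over probes). Without the 5 arrays with atrial markers the probe used gave -0.37 (adjusted p 0.566).

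**Figure D4:**
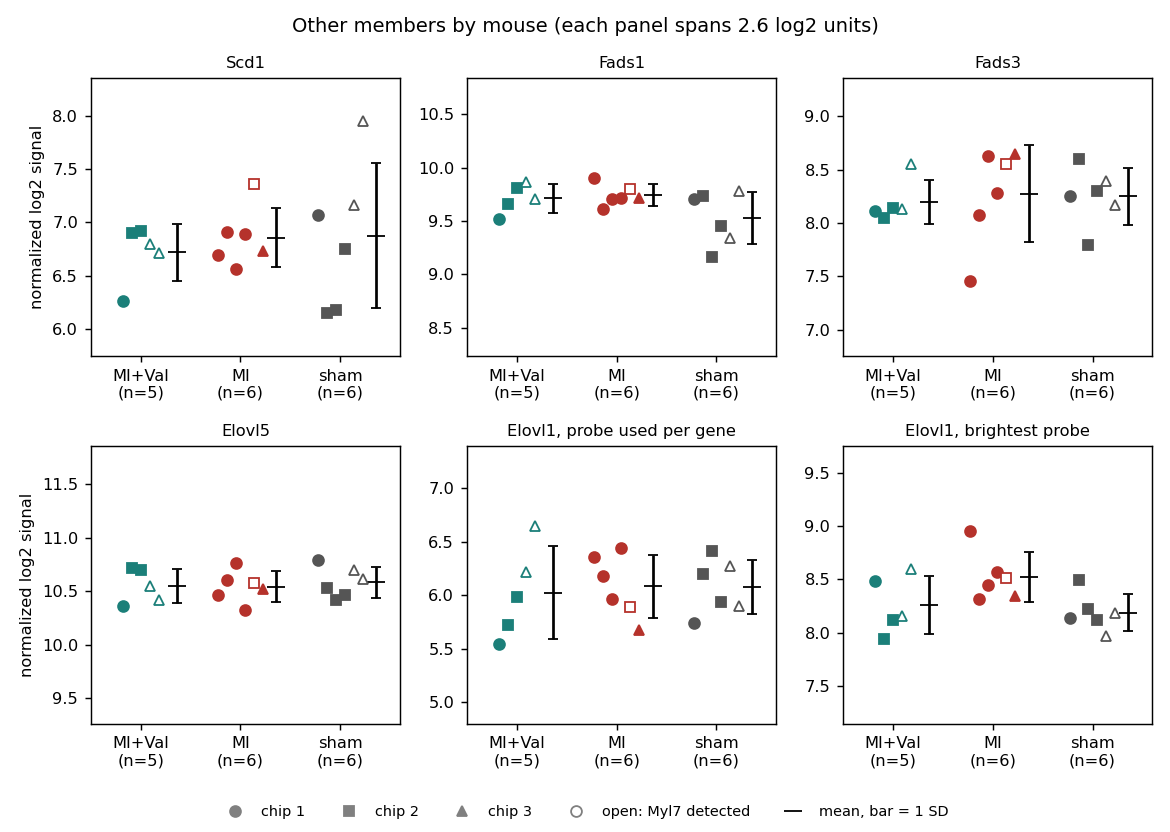
Normalized log2 signal in each mouse of Scd1, Fads1, Fads3, Elovl5 and 2 probes of Elovl1, with mean and 1 SD, each panel spanning the same width. The groups overlap in every panel.

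Without the 5 arrays with atrial markers MI minus sham was 0.22 for Fads1, -0.02 for Fads3 and -0.01 for Elovl5. For Elovl1 it was 0.05 on the probe used, and 0.28 (the brightest), 0.35 and 0.25 on the other probes. MI+Val minus MI was, without these arrays, -0.07 for Fads1, -0.12 for Fads3 and 0.06 for Elovl5. Fasn, Scd2, Fads2 and Elovl6 were too dim to be compared. Against sham, MI+Val hearts gave adjusted p of 0.943 for Scd1, 0.979 for Fads3, 0.979 for Elovl1 and 0.978 for Elovl5. The median difference between MI and sham over the 6 measured members was 0.02, and 0.01 without Scd4, beside -0.01 over all genes. Elovl1 entered these medians by the probe used only.

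**Figure D5:**
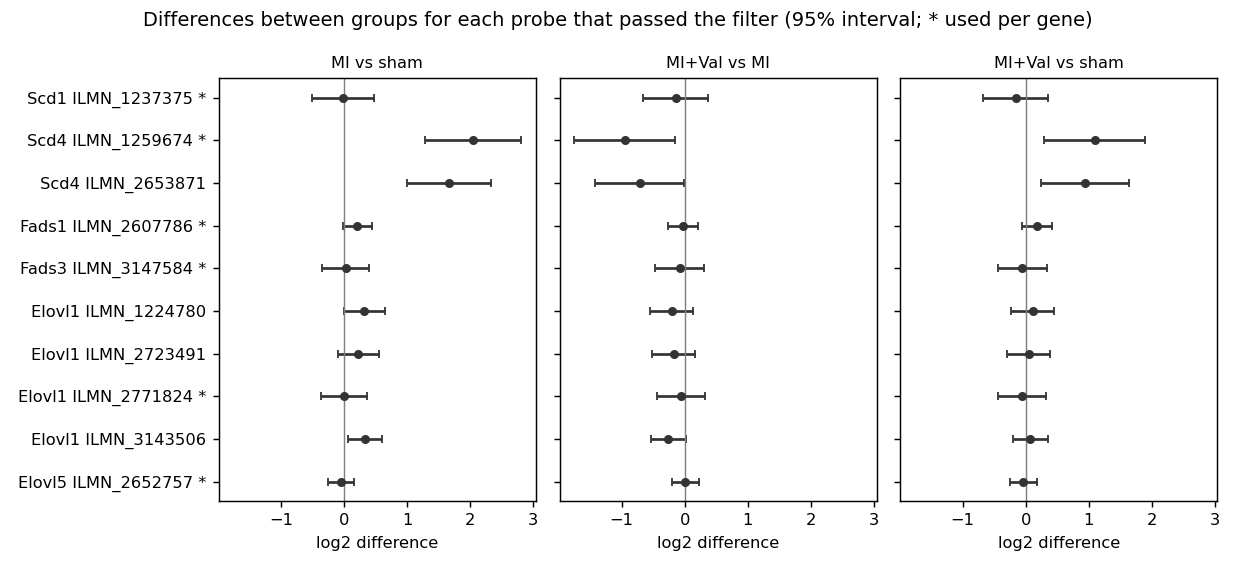
Difference in log2 signal with its 95% interval for the 10 probes that passed, by comparison, a star marking the probe used for a gene. In MI against sham, the comparison that picked out Scd4, only the 2 Scd4 probes lie past 1, at 2.05 and 1.66.

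Among the 16 genes nearest to Scd4 in RefSeq order on chromosome 19, 7 were measured, with Scd1 among them. The other 6 (Erlin1, Cwf19l1, Bloc1s2, Ndufb8, Hif1an and Slf2) were not called in MI against sham (adjusted p 0.418 to 0.861).

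The genes whose pattern over the 17 arrays was most like that of Scd4 were the stress-induced Nupr1 (Pearson r 0.93), the PDZ-LIM protein Pdlim2 (0.92), the secreted matrix protein Adamtsl2 (0.92), the microfibril protein Mfap5 (0.90) and the receptor phosphatase Ptprk (0.89). After the group means were removed, r was 0.82, 0.84, 0.86, 0.75 and 0.80. The arrays share their normalization, and the correlation is a description. Of these 5 genes 3 were also among the first 5 by Spearman's rho, 3 after removal of group means and 4 on the deposited values, and on the 12 arrays without atrial markers they ranked 1 to 8. Mfap5 was at 8.79 to 9.80 in MI+Val, 9.65 to 10.73 in MI and 7.90 to 8.84 in sham hearts. Of the other measured members, on the probe used per gene, Scd1 had r = 0.02, Fads1 0.27, Fads3 0.01, Elovl1 0.26 and Elovl5 -0.41 with Scd4. The other Elovl1 probes had 0.61 (the brightest), 0.53 and 0.33, and 0.34, 0.32 and 0.11 after the group means were removed. The 95th percentile of r with Scd4 over all genes was 0.55.

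Of 110 genes listed for chain elongation, malonyl-CoA and NADPH supply, acyl-CoA synthetases, lipogenic regulators, sterol synthesis, LXR targets and glycerolipid synthesis, 61 were measured. None was higher and 1 was lower in MI than in sham, beside 5.63% of all genes. That gene was Slc27a1, a fatty acid transporter with acyl-CoA synthetase activity, at 8.83 to 9.46 in MI+Val mice, 8.63 to 9.12 in MI mice and 9.20 to 10.07 in sham mice. In MI against sham it fell by 0.60 with an adjusted p of 0.0191 in limma. It stayed past the threshold with each mouse left out (highest adjusted p 0.0484) and without the 5 arrays with atrial markers (adjusted p 0.0460). Its value with the chip as a block or another normalization is not given here. With the chip as a block the calls over all genes fell from 464 to 187. None of the 61 genes passed in MI+Val against MI or against sham. Their median difference was -0.04 in MI against sham, beside -0.01 over all genes.

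None of the 10 measured enzymes of chain elongation and desaturation outside the set passed in any comparison. Tecr, the last reductase of an elongation cycle, was at 11.13 to 11.35 in MI+Val, 10.97 to 11.40 in MI and 11.11 to 11.52 in sham mice (adjusted p 0.506 in MI against sham). Hsd17b12, the first reductase, was at 8.39 to 8.73 in MI+Val, 8.09 to 8.62 in MI and 7.93 to 8.60 in sham mice (adjusted p 0.969). The groups overlapped for both. Hacd3, a dehydratase of the cycle, differed by -0.14 (adjusted p 0.499) in MI against sham, and its relative Hacd4 by 0.03 (adjusted p 0.940). Cyb5b, of the cytochrome b5 family, differed by -0.14 (adjusted p 0.470). In MI+Val against MI the smallest p of this list were those of Hacd4, with -0.30 (adjusted p 0.533), and Hsd17b12, with 0.18 (adjusted p 0.708).

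Of the 9 genes that supply acetyl-CoA, malonyl-CoA and NADPH, none passed. Idh1, a source of cytosolic NADPH, had the smallest p of this list in MI against sham, with a difference of -0.36 (adjusted p 0.126). Acacb, which makes malonyl-CoA at the mitochondrion, was at 10.04 to 10.87 in MI+Val, 10.12 to 10.42 in MI and 10.22 to 10.94 in sham mice (adjusted p 0.294), and Mlycd, which removes malonyl-CoA, differed by -0.22 (adjusted p 0.236). Acsf3, which activates malonate, differed by 0.13 (adjusted p 0.516). The other measured acyl-CoA synthetases, Acsl3, Acsl5 and Acsl6, differed by -0.44, -0.24 and -0.15 (adjusted p 0.135, 0.389 and 0.725).

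Of the 14 measured regulators of lipogenic genes none passed. Usf2, which binds E-boxes, differed by -0.42 (adjusted p 0.0540) in MI against sham, and Insig2, which holds SREBP in the endoplasmic reticulum, by 0.31 (adjusted p 0.0888). Mlxipl, the carbohydrate-responsive factor ChREBP, differed by -0.46 (adjusted p 0.129) and Srebf2, the regulator of sterol synthesis, by -0.21 (adjusted p 0.331). Among 9 sterol synthesis genes, Hsd17b7, a sterol ketoreductase, differed by 0.59 (adjusted p 0.0894), Stard4, a sterol carrier, by 0.46 (adjusted p 0.295), Mvd of the mevalonate pathway by -0.24 (adjusted p 0.36) and Msmo1, a sterol methyl oxidase, by -0.09 (adjusted p 0.813).

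The 3 measured LXR targets were Apoe, Lpcat3 and Pltp, with differences of 0.25, -0.19 and 0.09 in MI against sham (adjusted p 0.385, 0.527 and 0.826). Of 12 genes of glycerolipid synthesis, the acyltransferases Agpat5, Gpam and Agpat3 differed by -0.31, -0.46 and -0.34 (adjusted p 0.121, 0.245 and 0.260), and Dgat1, which completes triglyceride synthesis, by 0.14 (adjusted p 0.657). None passed in either list.

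Macrophage, fibroblast and atrial lists had markers that passed in MI against sham. Over all genes 3.31% were called higher in MI than in sham, and nothing is read from a single marker of a list. In MI, 6 of 8 measured macrophage markers exceeded sham at an adjusted p under 0.05 in limma. Their summed signal was 4718.8 to 6268.6 in MI+Val, 5387.1 to 9745.1 in MI and 3415.6 to 5039.2 in sham arrays. For fibroblasts it was 1 of 7 (Tcf21), with a summed signal of 1373.1 to 1789.3 in MI+Val, 1517.5 to 1891.0 in MI and 1219.2 to 1605.1 in sham arrays, and Postn was not detected. Of the 2 measured atrial markers 1, Nppa, was also higher in MI, and the other, Myl4, differed by -0.74 (adjusted p 0.735 in limma). Nppa did not follow the split by Myl7, with 12.71 to 14.60 on the 5 arrays and 13.02 to 14.60 on the other 12. None of 9 cardiomyocyte, 6 endothelial, 2 smooth muscle, 2 Schwann cell and 2 erythroid markers passed, and no marker passed in MI+Val against MI or against sham. No fat cell marker passed the brightness filter. Their part in the Scd4 difference was not tested.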

How the data were processed

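Total RNA of 17 mice was measured on MouseWG-6 v.2 BeadChips. The authors deposited bead signal intensities and detection p-values without normalization, and log2 values after variance stabilization and robust spline normalization with lumi (R 3.0.1). These log2 values entered only as an alternative. Here the intensities were background corrected from the detection p-values with neqc of limma 3.58.1 (R 4.3.3, offset 16), quantile normalized and set on the log2 scale. Probes with 1 symbol and a 33rd percentile of the signal of at least 125 were kept (11897), and a gene (8236 in all) was read from its most variable probe by interquartile range. A limma fit of all 3 groups, with Benjamini-Hochberg adjustment over all genes and a threshold of 0.05, was run, and a second over all 11897 probes. Figures were drawn with matplotlib 3.10.9. The number of arrays limits the precision. p-values measure the spread between mice. The members and lists were chosen with earlier results of these data known. Named genes were all members, the 5 genes most like Scd4 and, of each pathway list, up to 3 with the smallest p in MI against sham and up to 2 in MI+Val against MI. The fit was also run on simulated data with independent normal noise for each gene. There, 23, 42, 50 and 50 of 50 changes of 0.5, 0.75, 1 and 1.5 were called in MI against sham, with 8 false among 173 calls. The simulation held no chip effect and no atrial tissue, so it cannot speak to either. Alternatives covered background, scaling, offset, filters, probe choice, chip, replicate number, array weights, the methods' t-test with adjustment, single mice and, chosen after seeing the data, the arrays with atrial markers.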

Additional observations from a re-analysis of the deposited data

Results flagged for a closer look

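Of 30 groups of values (10 probes in 3 groups), 2 held a mouse far from the rest, and chance alone gives about 1 in 20. Fads3 in MI+Val mouse 5 was at 8.55, with the nearest of the group at 8.14. The Elovl1 probe ILMN_2723491 in sham mouse 5 was at 5.93, with the nearest at 6.30. Myl7 was detected on both of these arrays, both were on chip 3, and the part of atrial tissue or of the chip was not tested.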

How the results depend on the processing

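No member was called in MI+Val against MI or MI+Val against sham under any alternative run. In MI against sham 1 was called under each, but the set was chosen by the change of Scd4 there, so nothing is read from that. Scd4 in MI against sham was 1.13 on the deposited values, beside 2.05, with a range of 1.86 to 2.23 over single mice left out. In MI+Val against MI it was -1.34 to -0.68, and in MI+Val against sham 0.71 to 1.37, over the mice left out. On the deposited values these were -0.56 and 0.58, and MI+Val against sham gave 0.67 with array weights and 0.73 with no background correction. Genes called in MI against sham were 464, but 187 with the chip as a block, 197 without the 5 arrays with atrial markers, and 259 (without sham mouse 5) to 521 over the mice left out, with 309 without MI mouse 1 and 304 without MI mouse 4. In MI+Val against MI, beside 0, they were 9 with no background correction and 9 on the deposited values, 7 with offset 50, 7 with array weights, 1 with each array scaled at its 75th percentile, 1 on the brightest probe and 1 with every probe tested, 4 without the 5 arrays, and 0 to 14 over the mice left out, the most without MI+Val mouse 5. In MI+Val against sham, beside 1, they were 2 with no background correction, with the 75th percentile, with offset 50 and with the brightest probe. They were 5 on the deposited values, 3 with every probe tested and with array weights, and 4 with the chip as a block. They were 0 with the filter on detection p, the fit of 2 groups, the methods' t-test after adjustment and without the 5 arrays. Over the mice left out they were 0 to 3. Signs turned in MI against sham, on members that were not called. Scd1 (-0.0193) was 0.0623 with the chip as a block and 0.2201 without the 5 arrays (-0.1652 to 0.1955 over mice left out). Fads3 (0.0255) was -0.0156 without the 5 arrays (-0.0663 to 0.1885). Elovl1 (0.0064) was -0.0071 with the 75th percentile and -0.0441 with array weights (-0.0662 to 0.0888). Elovl5 (-0.0423) ran from -0.0863 to 0.0016. In the valsartan comparisons, Fads1 in MI+Val against MI was 0.0067 with array weights (-0.0681 to 0.0184 over mice). Elovl5 in MI+Val against MI was -0.0021 with the 75th percentile and -0.0027 on the deposited values (-0.0354 to 0.055), and in MI+Val against sham 0.0038 with array weights and 0.0458 without the 5 arrays (-0.0758 to 0.0126). Elovl1 was 0.0714 in MI+Val against sham with the brightest probe (-0.2103 to 0.0679), and -0.2167 to 0.0615 in MI+Val against MI. Scd1 was 0.1584 in MI+Val against sham without the 5 arrays (-0.3045 to 0.0563), and Fads3 -0.1456 to 0.016. The causes were not tested.

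The labels number the mice within each group and do not say that the numbers pair them. Of 16 same-numbered pairs 4 had correlated deviations above 0.1, with a range of -0.20 to 0.43. Correlations of this kind cannot decide whether the mice were paired. With the replicate block 467 genes were called in MI against sham, 0 in MI+Val against MI and 0 in MI+Val against sham, and no call of a member changed.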
